A study of Mus musculus with 26 samples.

Results

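Lung group 2 innate lymphoid cells (ILC2s) of the strain CC030/GeniUnc were compared in 2 states, after 6 days of culture with activating cytokines and directly after sorting from naïve mice. The labels gave 5 cultured and 3 naïve CC030 libraries, which are 8 of the 26 libraries of the series. Cultured cells (vehicle day 6) came from 5 mice, each kept as a separate culture at 3000 cells per well with IL-33 at 10 ng/mL, TSLP at 10 ng/mL, human IL-2 at 100 U/mL and DMSO, the solvent that served as vehicle. Naïve cells (naïve CC030) came from 3 mice of a separate experiment, received no treatment and were lysed without culture. Both groups were wild-type CC030/GeniUnc, one of the recombinant inbred lines of the Collaborative Cross, and the study used female mice of 8 to 16 weeks unless it said otherwise. The naïve cells had been enriched with CD25 beads and sorted as CD90+ CD127+ CD25+ ICOS+ cells, whereas the cells for culture had been sorted as CD90+ CD127+ ST2+ cells on another instrument. The groups therefore differ in culture, in the gate and in the experiment, and these cannot be told apart. Each library holds many cells, so that fewer cells of a type and less RNA per cell cannot be told apart either.

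ILC2s are tissue-resident lymphocytes that carry no antigen receptor and are known for making IL-5 and IL-13 in the airway. They are woken by signals of the epithelium: IL-33 acts through ST2 and the shared chain IL1RAP, and TSLP acts through its own receptor chain with the IL-7 receptor, while IL-2 acts through CD25 and sustains growth in culture. Receptors of these and other cytokines signal through kinases and STAT proteins, and SOCS proteins are induced by that signal and damp it. A lymphocyte that leaves the resting state is known to enlarge, to take up iron, to make ribosomes and mitochondria and to copy its DNA. Chromosome 16 of the mouse carries genes of each of these steps, among them the interferon receptor cluster, the CD200 receptor family, Socs1 and the transferrin receptor. Chromosome M is the small circular genome of the mitochondrion and encodes subunits of the respiratory chain with the RNAs that translate them.

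Chromosomes 16 and M are described apart from the rest because on these the counts of cultured CC030 cells followed the genes of the annotation. As a measure of this, levels of protein-coding genes were set against those of 3 naïve C57BL/6J libraries of the same series, the strain of the mouse reference genome. Across the 664 protein-coding genes of chromosome 16, Spearman's rho with C57BL/6J was 0.783 for the mean of vehicle day 6 and 0.234 for the mean of naïve CC030. Across the 13 protein-coding genes of chromosome M it was 0.951 for vehicle day 6 and 0.879 for naïve CC030. On the other 19 chromosomes it lay between 0.0564 and 0.319 in vehicle day 6 and between -0.0207 and 0.214 in naïve CC030. These correlations are across genes, which share libraries and are not independent replicates, and they serve as a description. On the other chromosomes a count listed under a symbol could therefore not be read as the level of that gene in either group. In naïve CC030 the same limit holds for chromosome 16, where rho was 0.234, beside at most 0.214 on the other chromosomes. Differences on chromosome 16 thus set counts that followed the genes in vehicle day 6 against counts that hardly did in naïve CC030.

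**Figure D1:**
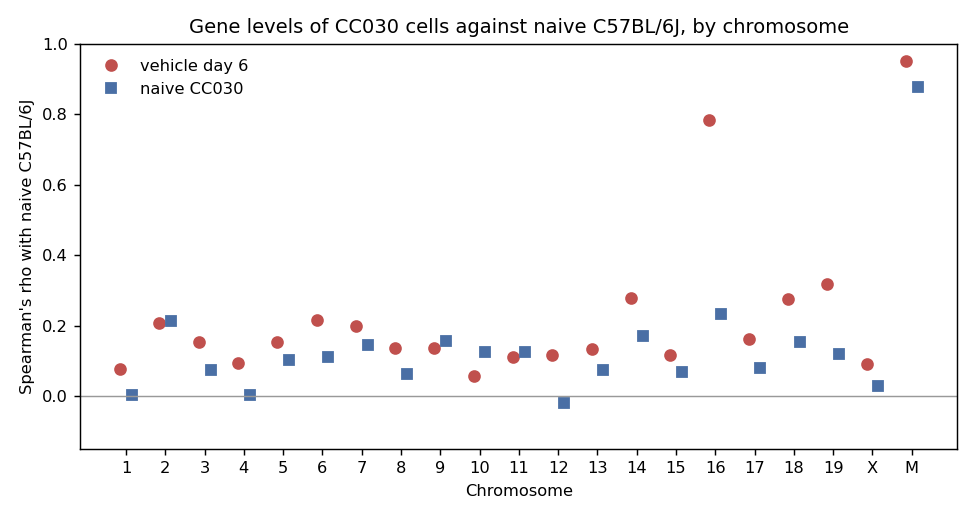
Spearman's rho (vertical axis, no unit) between the mean level of protein-coding genes in CC030 cells and in naïve C57BL/6J ILC2s, for each chromosome (horizontal axis), with circles for vehicle day 6 and squares for naïve CC030. Vehicle day 6 stands at 0.783 on chromosome 16 and 0.951 on chromosome M, and naïve CC030 is high on chromosome M alone, at 0.879.

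On chromosome 16 the match to the reference strain ended near the distal tip. For the 633 genes that begin before 94.3 Mb, where Ripply3 starts, rho was 0.838 in vehicle day 6 and 0.255 in naïve CC030. For Ripply3 and the genes beyond it, 31 in all, it was -0.0625 in vehicle day 6 and -0.252 in naïve CC030. The boundary was set after the counts had been seen.

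**Figure D2:**
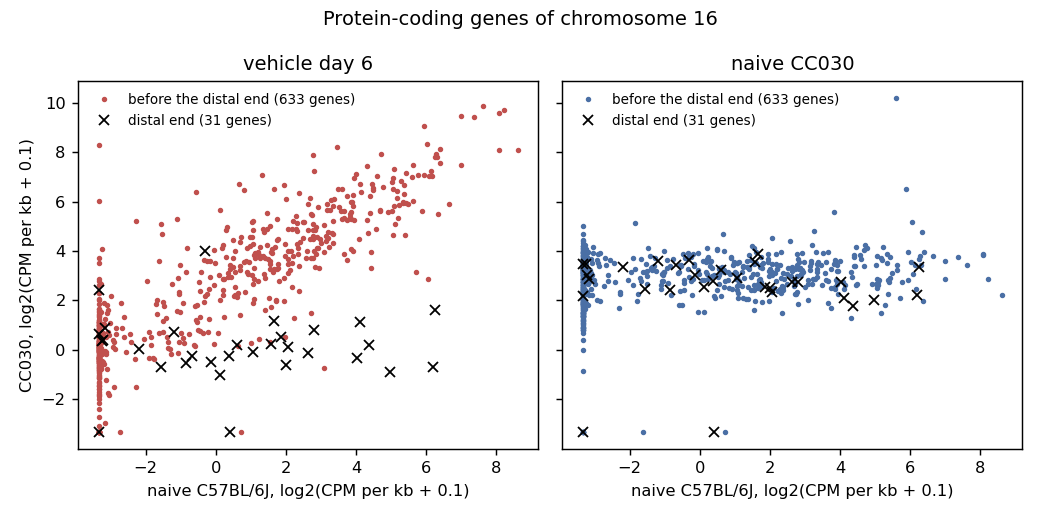
Level of each protein-coding gene of chromosome 16 in CC030 cells (vertical axis) against naïve C57BL/6J (horizontal axis), both as log2 of CPM per exonic kb with a small constant added, in vehicle day 6 (left) and naïve CC030 (right). Dots are the 633 genes before 94.3 Mb and crosses the 31 genes of the distal end, and levels of vehicle day 6 climb with those of C57BL/6J whereas levels of naïve CC030 form a nearly flat band.

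Within naïve CC030 libraries the counts on chromosome 16 lay nearly evenly over genes that ILC2s use and genes of other tissues. The median count per exonic kb of 168 genes expressed in C57BL/6J ILC2s was divided by that of 27 genes restricted to other tissues (liver, brain, testis, keratin-associated proteins). The ratio was 53.7, 20.2, 22.7, 265 and 50.1 in the 5 vehicle day 6 libraries and 1.38, 1.49 and 1.30 in the 3 naïve CC030 libraries. The groups did not overlap, and vehicle day 6 of mouse 4 was highest. Counts also followed the exonic length of the gene more closely in naïve CC030, with rho across genes of 0.473 to 0.516 in vehicle day 6 libraries and 0.778 to 0.807 in naïve CC030 libraries. Of the 633 genes, 10.3% to 19.0% had no count in a vehicle day 6 library and 2.21% to 4.27% in a naïve CC030 library. This evenness moved with the groups in all that follows, and its part in the differences between single genes was not tested.

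The libraries held 1886141, 1610487, 1143405, 3420893 and 1682519 counts in genes in vehicle day 6 and 1324595, 1500164 and 1524751 in naïve CC030. In vehicle day 6, 91.9% to 94.1% of the reads that were assigned to a gene or to no feature fell in no feature. Counts were spread over fewer genes in vehicle day 6, with 30412, 31936, 30847, 22476 and 28042 genes when every library was thinned to 1143405 counts, against 45704, 42988 and 44690 genes in naïve CC030. The difference was -15718 genes, vehicle day 6 minus naïve CC030, and the groups did not overlap. An exact two-sided permutation test over 56 assignments gave p = 0.0357, the smallest p that 5 against 3 libraries allow.

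Chromosome 16 took 8.03%, 7.55%, 7.32%, 8.83% and 7.26% of counts in vehicle day 6 and 3.25%, 4.29% and 3.37% in naïve CC030. The means were 7.80% ± 0.651 in vehicle day 6 (SD, n = 5) and 3.64% ± 0.567 in naïve CC030 (SD, n = 3), a difference of 4.16 percentage points (exact permutation p = 0.0357). Chromosome M took 9.22%, 8.84%, 7.03%, 11.9% and 7.21% of counts in vehicle day 6 and 2.37%, 2.98% and 1.63% in naïve CC030. Its mean was 8.83% ± 1.95 in vehicle day 6 (SD, n = 5) and 2.32% ± 0.676 in naïve CC030 (SD, n = 3), 6.50 points more (exact permutation p = 0.0357). Both shares thus stood above naïve CC030 in each of the 5 vehicle day 6 libraries. They are shares of a total whose other part could not be assigned to genes, and without ribosomal RNA genes the share of chromosome M was 5.85% ± 1.84 in vehicle day 6 (SD, n = 5) and 1.76% ± 0.496 in naïve CC030 (SD, n = 3).

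The direction of many single genes depended on how the libraries were scaled. Libraries were scaled on 179 protein-coding genes of chromosome 16 with at least 20 CPM in naïve C57BL/6J, and levels below are scaled CPM, that is CPM computed on the library size after this scaling. In naïve CC030, 168 of these genes stood at only 1.30 to 1.49 times the median of genes restricted to other tissues. The scaling raised library sizes to 1577799 to 6886944 in vehicle day 6 and lowered them to 541667 to 633839 in naïve CC030. Scaled CPM are therefore lower in vehicle day 6 and higher in naïve CC030 than CPM on total counts. With the chromosome 16 set, 678 of 24788 genes were called higher in vehicle day 6, which is 2.74% of all genes tested, and 22474 were called lower, which is 90.7% (edgeR quasi-likelihood F-test, Benjamini-Hochberg adjusted p below 0.05). The median log2 fold change of vehicle day 6 over naïve CC030 was -4.47 over all genes and -3.05 over chromosome 16. Scaled by TMM over all genes these medians were -0.63 and 0.89, a shift of the whole chromosome. A gene is therefore described here as having risen or fallen only if it passed with the same sign under 4 scalings: the chromosome 16 set, TMM over all genes, size factors of DESeq2 and total counts. In that strict sense 678 of the 24788 genes rose (2.74%) and 3544 fell (14.3%). For increases the rule added nothing, since all 678 genes higher with the chromosome 16 set passed it. That set gave the lowest median over all genes, -4.47, beside -0.63 with TMM, -0.64 with size factors of DESeq2 and -2.71 with total counts. Changes of single genes are given as log2 fold changes of vehicle day 6 over naïve CC030.

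On chromosome 16, 785 of 1599 genes were tested, and 90 of them rose (11.5%). All 90 passed under every scaling, which is no further support, because the chromosome 16 set gave the lowest fold changes. A further 543 were lower with the chromosome 16 set, and 68 of these fell under every scaling (8.66%). For the remaining genes of the chromosome the direction depended on the scaling or the test was not passed. The 90 genes that rose all begin before 94.3 Mb. They comprised 71 protein-coding genes and 10 processed pseudogenes, whose counts are uncertain because reads of near-identical copies can be split, and 69 of the 90 had at least 20 CPM in naïve C57BL/6J. Of the 68 that fell, 59 had under 1 CPM in naïve C57BL/6J and 63 begin before 94.3 Mb. In 87 of the 90 and in all 68 the libraries of the groups did not overlap, as in 634 of the 785 genes tested on the chromosome. Of all 785 tested genes of the chromosome, 199 had at least 20 CPM and 359 had under 1 CPM in naïve C57BL/6J.

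Among the cytokine receptor chains and their feedback, Socs1 was the gene that rose. SOCS1 binds JAK kinases and dampens signals of interferons and of cytokines that share the common gamma chain. Socs1 measured 402, 527, 655, 453 and 1026 scaled CPM in vehicle day 6 and 88.6, 93.9 and 69.4 in naïve CC030. The groups did not overlap, and vehicle day 6 of mouse 5 was highest. The log2 fold change was 2.87 (SE 0.37, edgeR adjusted p = 1.24e-05), and 4.65 to 6.94 under the other scalings. Its promoter is shown because Socs1 is the member of the list that rose and because the window carries a pair of overlapping matches to GAAANNGAAA, a letter pattern of the kind that interferon regulatory factors bind. The 150 bases upstream of the start on the reverse strand (RefSeq, GRCm38.p6, chr16:10785537-10785686) are given 5′ to 3′, with the matches in capitals at -83 to -68 from the start.
Socs1: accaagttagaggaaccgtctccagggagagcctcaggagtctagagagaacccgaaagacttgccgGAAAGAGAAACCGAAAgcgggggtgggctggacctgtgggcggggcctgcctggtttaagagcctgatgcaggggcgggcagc
On either strand the pattern stands in 1131 of 32851 promoter windows of 300 bases (3.44%) and in 2 of the 66 genes of chromosome 16 that rose and have a window, Socs1 and 0610012G03Rik. The match is a description of the sequence and not a measured binding site.

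The other 6 tested chains of that list did not rise. Ifnar2, a chain of the type I interferon receptor, measured 34.2, 26.2, 39.3, 27.3 and 25.5 scaled CPM in vehicle day 6 and 29.5, 16.8 and 41.0 in naïve CC030, a log2 fold change of 0.06 within overlapping groups. Ifnar1, its partner, measured 76.1, 64.5, 61.5, 66.1 and 64.6 in vehicle day 6 and 102, 129 and 78.9 in naïve CC030, and did not pass (-0.63, edgeR adjusted p = 0.112). The groups of Ifnar1 did not overlap, and its sign turned to positive under each of the other scalings. Ifngr2, a chain of the interferon gamma receptor, was at 28.8 to 46.5 in vehicle day 6 and 40.2 to 77.5 in naïve CC030, with overlapping groups and a log2 fold change of -0.81 that turned positive likewise. Il10rb, shared by the receptors of IL-10 and interferon lambda, stood at 40.4 to 62.1 scaled CPM in vehicle day 6 and at 207, 31.9 and 22.1 in naïve CC030. A single naïve library thus lay above all 5 cultured ones and the others below them. Il1rap, the chain that ST2 needs for the IL-33 signal, measured 20.9, 24.1, 14.6, 27.3 and 11.9 in vehicle day 6 and 151, 230 and 123 in naïve CC030, a log2 fold change of -3.07 that was lower with the chromosome 16 set and positive (1.19) with TMM over all genes. Tnfrsf17, which encodes a receptor of plasma cells, was at 0.581 to 1.27 in vehicle day 6 and 18.9 to 29.5 in naïve CC030, and its call was also not kept under every scaling. Over the 7 tested genes of the list, 1 rose, 2 were lower with the chromosome 16 set but not under every scaling and 4 were not called. Of all tested genes of the chromosome 90 of 785 rose, and of the scaling set 58 of 178. The median of the list was -0.78, beside -0.06 over the scaling set, -3.05 over chromosome 16 and -4.47 over all genes.

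Of 15 inhibitory and costimulatory receptors and ligands, 3 rose, 8 were lower with the chromosome 16 set but not under every scaling and 4 were not called. For comparison, 90 of 785 tested genes of the chromosome and 58 of 178 genes of the scaling set rose. Cd200r1, an inhibitory receptor of myeloid cells and ILC2s for the ligand CD200, measured 628, 556, 479, 714 and 490 scaled CPM in vehicle day 6 and 24.0, 16.8 and 53.6 in naïve CC030. Every cultured library lay above every naïve one, with a log2 fold change of 4.18 (SE 0.42, edgeR adjusted p = 2.32e-06), and 4.81 without naïve library 3. Cd200r4, an activating member of the family that lies beside it, measured 243, 133, 100, 285 and 150 in vehicle day 6 and 11.1, 15.1 and 26.8 in naïve CC030, a log2 fold change of 3.36 (SE 0.50, edgeR adjusted p = 3.37e-05). Members of this family resemble each other in sequence, so the split of reads between them is uncertain. Cd47, the ligand by which cells hold off phagocytes, measured 577, 580, 536, 661 and 546 in vehicle day 6 and 175, 198 and 117 in naïve CC030. Its difference was smaller, at 1.83 (SE 0.28, edgeR adjusted p = 4.21e-05), and the groups again did not overlap.

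The other members of the list were either lower in cultured cells or not called. Cd86, a costimulatory ligand of antigen-presenting cells, was at 0 to 4.99 scaled CPM in vehicle day 6 and at 56.8 to 75.7 in naïve CC030. Cd80, its companion, was at 19.8 to 35.4 in vehicle day 6 and 80.5 to 101 in naïve CC030, with a log2 fold change of -1.76 that became 2.49 with TMM over all genes. Cd96, a receptor of T and NK cells that the C57BL/6J libraries hold at 144 CPM, was at 4.44 to 15.4 in vehicle day 6 and at 105, 73.8 and 399 in naïve CC030, where library 3 gave most of the mean (log2 fold change -4.28, and -3.17 without it). Alcam, an adhesion molecule, measured 70.1 to 87.0 in vehicle day 6 and 61.5 to 88.6 in naïve CC030, and Tigit, a further inhibitory receptor, was at 3.17 to 9.16 in vehicle day 6 and 1.68 to 11.0 in naïve CC030. Neither Alcam nor Tigit was called, and the list had a median of -1.14. Cd86, Alcam and Tigit were named after their values had been seen.

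**Figure D3:**
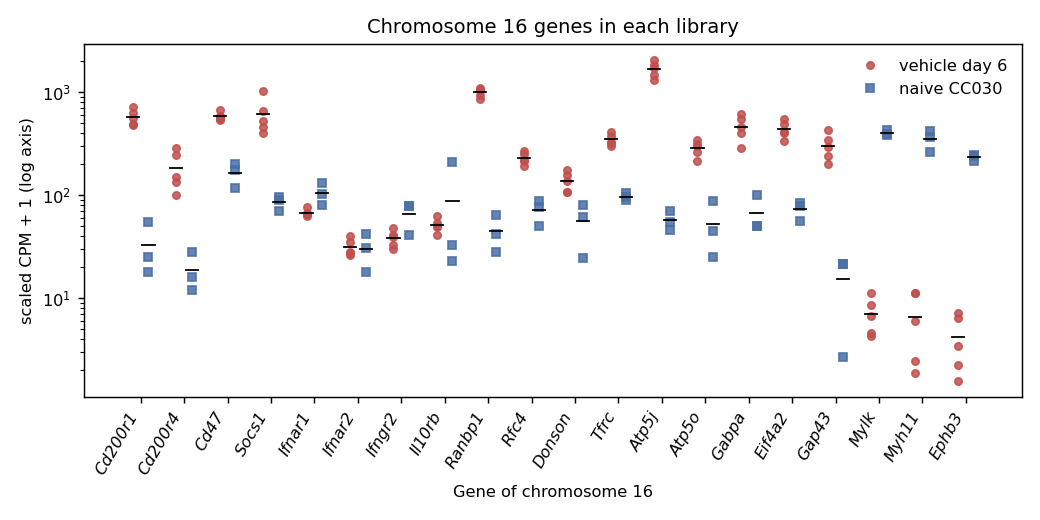
Scaled CPM plus 1 (log axis) of 20 genes of chromosome 16 in each library, circles for the 5 vehicle day 6 libraries and squares for the 3 naïve CC030 libraries, with a bar at each mean. Cd200r1, Socs1, Ranbp1 and Atp5j stand higher in every vehicle day 6 library, the interferon receptor chains lie close together, and Mylk, Myh11 and Ephb3 stand lower in every vehicle day 6 library.

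Of 20 tested genes of DNA replication, repair and mitosis, 6 rose: Ranbp1, Cep19, Rfc4, Donson, Cip2a and Nde1. Another 7 were lower with the chromosome 16 set, none of them under every scaling, and 7 were not called. The median was -0.01, beside -3.05 over chromosome 16 and -4.47 over all genes. Over the 178 tested genes of the scaling set, chosen for their level in C57BL/6J ILC2s, the median was -0.06 and 58 rose. Ranbp1, which assists the nuclear transport switch Ran and the mitotic spindle, measured 1053, 1034, 1086, 845 and 943 scaled CPM in vehicle day 6 and 40.6, 63.7 and 26.8 in naïve CC030. The 5 cultured libraries lay close to each other and far above the naïve ones, with a log2 fold change of 4.50 (SE 0.36, edgeR adjusted p = 8.17e-07), and 6.33 to 8.63 under the other scalings. Trmt2a, a tRNA methyltransferase that starts 188 bases away on the opposite strand, also rose, with 677, 769, 994, 441 and 1244 in vehicle day 6 and 113, 88.9 and 103 in naïve CC030 (log2 fold change 3.02, SE 0.37, edgeR adjusted p = 8.24e-06). Some transcript models of the pair overlap, and the libraries were made with a kit that does not mark strand, so reads of the overlap cannot be assigned to either gene.

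The stretch between these starts is shown because both genes rose and because it holds TTTCCCGC, a letter pattern of the kind that E2F factors of the cell cycle bind. It lies at chr16:18248713-18248742 (RefSeq, GRCm38.p6, reverse strand, that of Ranbp1), partly in the first exon of a longer Ranbp1 transcript model, and is written 5′ to 3′ with the pattern in capitals. The pattern begins 37 bases before the Ranbp1 start.
Ranbp1-Trmt2a: atcactgcgcgTTTCCCGCcgctggggtca
On either strand the pattern stands in 351 of 32851 promoter windows of 300 bases (1.07%). Of the 66 genes of chromosome 16 that rose and have a window, 4 hold it: Ranbp1 and Trmt2a, which share a copy, Naa50 and Tra2b. The match says nothing of which factor was bound.

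Rfc4, a subunit of the clamp loader of DNA replication, measured 213, 220, 250, 267 and 192 scaled CPM in vehicle day 6 and 75.7, 87.2 and 48.9 in naïve CC030. Its log2 fold change was 1.69. Donson, which stabilizes replication forks, measured 107, 154, 136, 106 and 173 in vehicle day 6 and 60.9, 23.5 and 78.9 in naïve CC030, a log2 fold change of 1.31. Cep19, a protein of centrosomes and cilia, measured 305, 305, 320, 333 and 353 in vehicle day 6 and 33.2, 52.0 and 53.6 in naïve CC030, a log2 fold change of 2.80. For each of these 3 genes the groups did not overlap, and Cep19 varied least among the cultured libraries. Cip2a and Nde1, an inhibitor of a phosphatase and a dynein regulator of the spindle, rose by less (0.89 and 0.88). Mcm4, a subunit of the replicative helicase, did not pass, with a mean of 153 ± 22.3 in vehicle day 6 (SD, n = 5) and 103 ± 37.2 in naïve CC030 (SD, n = 3). Nor did Cdc45, which activates that helicase, at 55.4 to 88.7 in vehicle day 6 and 80.5 to 133 in naïve CC030. The long repair genes Prkdc, Polq and Top3b had log2 fold changes of -2.46, -2.45 and -2.41 with the chromosome 16 set, each turning positive with TMM over all genes.

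Tfrc, the receptor that brings iron into the cell, was the gene that rose among 5 tested genes of nucleotide synthesis, iron uptake and haem. On the chromosome as a whole 90 of 785 genes rose, and in the scaling set 58 of 178. Tfrc measured 325, 374, 319, 412 and 299 scaled CPM in vehicle day 6 and 94.2, 88.9 and 103 in naïve CC030. Both groups were tight and did not overlap, with a log2 fold change of 1.86 (SE 0.28, edgeR adjusted p = 3.66e-05).

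Of 19 tested nuclear genes of mitochondrial proteins, 7 rose, 3 were lower with the chromosome 16 set but not under every scaling and 9 were not called (median 0.12). In the scaling set 58 of 178 genes rose, and on the whole chromosome 90 of 785. Atp5j, a subunit of ATP synthase, was the protein-coding gene with the largest increase of chromosome 16 among those with a mean of at least 50 counts. It measured 1456, 1845, 2041, 1301 and 1723 scaled CPM in vehicle day 6 and 68.3, 45.3 and 53.6 in naïve CC030, a log2 fold change of 4.91 (SE 0.33, edgeR adjusted p = 3.55e-07), and 6.71 to 8.99 under the other scalings. Gabpa, which lies next to it and encodes the DNA-binding subunit of a transcription factor of mitochondrial genes, measured 401, 455, 549, 287 and 611 in vehicle day 6 and 99.7, 48.6 and 48.9 in naïve CC030. Both genes were lowest in mouse 4 among the cultured libraries, and neither overlapped with the naïve group. Atp5o, another ATP synthase subunit, rose by 2.46 (3.05 without naïve library 2), with 215 to 339 in vehicle day 6 and 24.0 to 87.2 in naïve CC030. Fam162a, a mitochondrial protein of the response to low oxygen, rose by 3.76, with 347 to 508 in vehicle day 6 and 18.9 to 42.5 in naïve CC030. The others that rose were Mrpl40 (2.15) and Mrps6 (1.23) of the mitochondrial ribosome, Ndufb4 of complex I (2.02) and Sod1, which removes superoxide (1.96). The smallest of them, Mrps6, had an edgeR adjusted p of 0.0498.

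Translation and protein folding held the largest share of increases of the lists of chromosome 16. On the whole chromosome 90 of 785 tested genes rose (11.5%), and in the scaling set, expressed in C57BL/6J ILC2s, 58 of 178. Whether any list differs from expressed genes as a whole was not tested. Of 21 tested genes 11 rose, 6 were lower with the chromosome 16 set but not under every scaling and 4 were not called, and the median log2 fold change was 1.18. Eif4a2, a helicase of translation initiation, measured 407, 484, 337, 542 and 395 scaled CPM in vehicle day 6 and 55.4, 82.2 and 77.3 in naïve CC030 (log2 fold change 2.59). Ncbp2, a subunit of the complex that binds the cap of new mRNAs, measured 784, 704, 989, 578 and 914 in vehicle day 6 and 46.2, 126 and 94.7 in naïve CC030 (3.16). Son, a splicing factor of nuclear speckles, measured 913, 1005, 1087, 729 and 1190 in vehicle day 6 and 190, 114 and 215 in naïve CC030 (2.51). In all 3 the cultured libraries lay above the naïve ones. The chaperonin subunit Cct8 rose by 2.62, and of the ribosomal protein genes Rpl24 and Rpl35a rose by 3.03 and 2.35. The list also holds Dnajb11, Naa50, Polr2h, Tra2b and Usp25 among those that rose. Genes of ribosomal proteins have many processed copies, so their counts are uncertain.

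**Figure D4:**
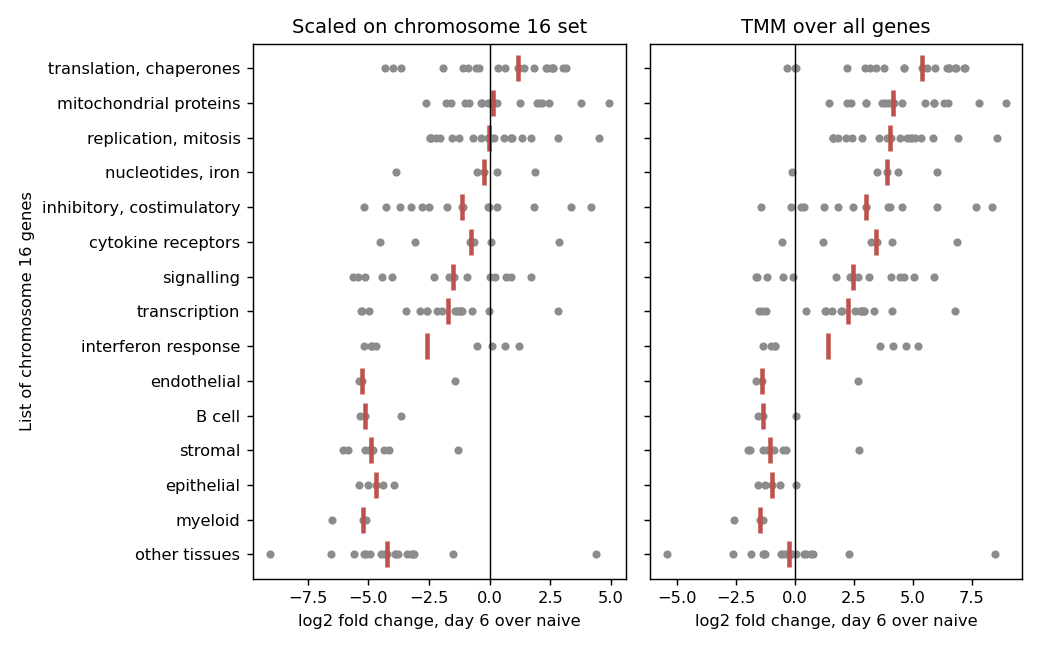
Log2 fold change of vehicle day 6 over naïve CC030 (horizontal axes) for the tested genes of 15 lists of chromosome 16 genes (rows), with libraries scaled on the chromosome 16 set (left) and by TMM over all genes (right); points are genes and bars are medians. The median of translation and chaperone genes is the highest on both scales, at 1.18 and 5.39, and those of endothelial, B cell, stromal, epithelial and myeloid markers lie below 0 on both.

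Among the 10 largest increases of protein-coding genes were also Pigx, Samsn1, 0610012G03Rik and Gm4737, which are on none of the lists, and Gap43. Samsn1, an adaptor that restrains lymphocyte activation, measured 823, 875, 688, 1012 and 670 scaled CPM in vehicle day 6 and 36.9, 50.3 and 77.3 in naïve CC030 (log2 fold change 3.89, SE 0.35, edgeR adjusted p = 1.39e-06). Pigx, an enzyme subunit of the anchor that holds GPI-linked proteins in the membrane, measured 1141, 1028, 1019, 1211 and 896 in vehicle day 6 and 51.7, 80.5 and 78.9 in naïve CC030 (3.91). Pigx lies next to Cep19, and 0610012G03Rik (3.73) lies next to Ncbp2, all of which rose. The groups of Samsn1 and Pigx did not overlap. Gm4737, a gene model with no described role, rose by 3.17, with 65.9 to 118 in vehicle day 6 and 0, 25.1 and 3.16 in naïve CC030, and by 5.64 without naïve library 2.

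Gap43, a growth cone protein of neurons, was the exception among 19 tested genes of other tissues. Its counts were 1377, 569, 534, 2011 and 449 in vehicle day 6 and 11, 1 and 13 in naïve CC030, whereas it was listed at 0 CPM in naïve C57BL/6J. It measured 424, 237, 338, 292 and 197 scaled CPM in vehicle day 6, above all naïve libraries (20.3, 1.68 and 20.5), with a log2 fold change of 4.39 (SE 0.57, edgeR adjusted p = 1.25e-05). Robo1, Robo2 and Lsamp, other genes of neurons on the list that the rule named, stood low, at 1.60 to 27.0, 0.871 to 23.5 and 2.32 to 26.2 in vehicle day 6 against 139 to 151, 112 to 223 and 149 to 199 in naïve CC030. Their log2 fold changes were -3.24, -3.88 and -3.42, and those of Robo1 and Lsamp turned to 0.49 and 0.39 with TMM over all genes. Of this list 17 were lower with the chromosome 16 set, beside 543 of the 785 tested genes of the chromosome. Fetub, of the liver, and Olig2, of oligodendrocytes, fell under every scaling.

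Interferon-induced genes, transcription factors and signalling genes gave 1 of 8, 1 of 18 and 2 of 15 increases. Over all tested genes of chromosome 16 it was 90 of 785 (11.5%). Of 8 interferon-induced genes Dtx3l, an ubiquitin ligase, rose, with 136, 178, 198, 134 and 209 scaled CPM in vehicle day 6 and 103, 31.9 and 88.4 in naïve CC030 (log2 fold change 1.20), and 4 were lower with the chromosome 16 set but not under every scaling. Of 18 transcription factors and cofactors Gabpa rose by 2.81 and 14 were lower, of which Brwd1, a reader of acetylated histones that lies in the distal end, fell under every scaling (-4.99). Of 15 kinases, adaptors and regulators of small GTPases, 2 rose, among them Pak2, a kinase that acts downstream of small GTPases, by 1.71. Pak2 measured 382, 402, 311, 427 and 378 in vehicle day 6 and 107, 102 and 139 in naïve CC030. Map3k13, Adcy5 and Dgkg, a kinase of stress signalling, an adenylyl cyclase and a diacylglycerol kinase, fell under every scaling, at -5.14, -5.43 and -5.63. The medians of these 3 lists were -2.60, -1.72 and -1.50 with the chromosome 16 set, and 1.41, 2.28 and 2.46 with TMM over all genes. Most of their members therefore had no direction that held across scalings.

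The 10 protein-coding genes of chromosome 16 with the largest decreases included Mylk, which is on the list of stromal markers, and Dgkg of the signalling list, and the other 8 are on none of the lists. Mylk, the myosin light chain kinase of smooth muscle, measured 10.2, 3.33, 7.61, 3.63 and 5.71 scaled CPM in vehicle day 6 and 382, 389 and 423 in naïve CC030 (log2 fold change -6.04, SE 0.41, edgeR adjusted p = 3.43e-07), and lay at -4.21 to -1.97 under the other scalings. Myh11, the smooth muscle myosin, measured 10.2, 4.99, 10.1, 1.45 and 0.879 in vehicle day 6 and 414, 369 and 260 in naïve CC030 (-6.02). Ephb3, an ephrin receptor, measured 2.46, 5.41, 1.27, 0.581 and 6.15 in vehicle day 6 and 246, 240 and 211 in naïve CC030 (-6.23). B3gnt5, a glycolipid-building enzyme, had the largest decrease of these 10 genes, at -6.98, with 0.616 to 7.91 in vehicle day 6 and 404 to 523 in naïve CC030. All of them fell under every scaling without overlap, as did Dgkg, 4930562C15Rik (-5.85), Masp1 of the complement system (-5.47), Tmem44 (-5.39), Igf2bp2, an RNA-binding protein (-5.24), and C2cd2 (-5.79), of which C2cd2 lies in the distal end. Of the 68 genes of chromosome 16 that fell, the median was 2.06 scaled CPM in vehicle day 6 and 132 in naïve CC030, and over the 90 genes that rose it was 244 in vehicle day 6 and 54.6 in naïve CC030.

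Markers of cells that a sort can carry over were lower with the chromosome 16 set, as were 69.2% of all tested genes of that chromosome and 90.7% of all genes. Of 22 such markers tested on chromosome 16 none rose and 22 were lower: 8 of 8 stromal and smooth muscle, 5 of 5 epithelial, 3 of 3 endothelial, 3 of 3 B lineage and 3 of 3 myeloid. Some of them passed the filter only through naïve CC030, so that a lower value was largely set in advance. BC100530 (myeloid), for example, had 0, 0, 0, 0 and 8 counts in vehicle day 6 and 11, 19 and 12 in naïve CC030. With at least 10 counts required in every library, 186 genes of chromosome 16 were lower, beside 543. Under every scaling Mylk and Fstl1 (stromal), Trp63 (basal epithelium) and Mefv (myeloid) fell. Summed over each list, stromal markers gave 44.4 to 101 scaled CPM in vehicle day 6 and 1154 to 1382 in naïve CC030, and epithelial ones 8.86 to 43.1 in vehicle day 6 and 594 to 785 in naïve CC030. Endothelial markers gave 83.2 to 120 in vehicle day 6 and 360 to 386 in naïve CC030, B lineage ones 0.871 to 17.7 in vehicle day 6 and 250 to 284 in naïve CC030, and myeloid ones 0.290 to 5.71 in vehicle day 6 and 176 to 201 in naïve CC030. The sums of the groups did not overlap in any of the 5 lists, as in 634 of the 785 single genes tested on the chromosome. Without scaling, the summed counts of endothelial markers overlapped, at 189 to 603 in vehicle day 6 and 209 to 229 in naïve CC030. Those of the other lists did not overlap. The part of other cells in the differences was not tested. Heg1 (endothelial) and Ccdc80 (stromal) were less low (-1.42 and -1.29) and turned positive under the other scalings.

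In the distal end of chromosome 16, where the match to the reference strain was lost, no gene rose. Of its 35 tested genes 34 were lower with the chromosome 16 set and 5 fell under every scaling, and 11 genes of the scaling set itself lie there. Over all genes tested 2.74% rose, 90.7% were lower with that set and 14.3% fell under every scaling, so these counts are close to the general share. Single naïve libraries also carried high counts at a few genes. Atg3, of autophagy, stood at 179 to 268 scaled CPM in vehicle day 6 and at 57.2, 27787 and 77.3 in naïve CC030. Nfkbiz, a regulator of NF-kB, stood at 135 to 166 in vehicle day 6 and at 68.3, 3256 and 120 in naïve CC030, and Nrip1, a nuclear receptor corepressor, at 243 to 326 in vehicle day 6 and at 142, 102 and 3690 in naïve CC030. Each is among the 543 genes called lower with the chromosome 16 set although the other naïve libraries lay below the cultured ones, and none of the 3 fell under every scaling.

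Libraries of the same 5 mice at day 2 of culture varied widely. The ratio of expressed to tissue-restricted genes was 3.30, 1.24, 1.16, 1.69 and 72.3 in vehicle day 2 of mice 1 to 5. Of the genes that rose at day 6, Cd200r1, Samsn1 and Pigx are given as examples. Cd200r1 measured 367, 60.3, 57.5, 85.1 and 148 scaled CPM and Samsn1 617, 101, 118, 170 and 230 in these libraries. Pigx measured 665, 84.9, 82.1, 187 and 29.2. Mouse 1 was highest in all 3 genes, at values below those of its own day 6 library. Ribosomal RNA of mitochondria took 13.8% to 56.4% of counts on day 2, so these libraries are given as context with no test.

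Among 25 tested genes of chromosome M, 6 rose, 2 fell under every scaling and a further 9 were lower with the chromosome 16 set but not under every scaling. Of the mRNAs and ribosomal RNAs, 3 of 13 rose, and all 3 encode subunits of complexes III and IV. mt-Co2, of complex IV, measured 80.1, 93.2, 129, 57.2 and 120 scaled CPM in vehicle day 6 and 40.6, 20.1 and 20.5 in naïve CC030 (log2 fold change 1.82, SE 0.49, edgeR adjusted p = 2.78e-03). mt-Co1, also of complex IV, measured 4738, 4333, 4303, 6266 and 4406 in vehicle day 6 and 2878, 3972 and 2054 in naïve CC030 (0.70, SE 0.27, edgeR adjusted p = 0.0249). mt-Cytb, of complex III, measured 12683, 10070, 9367, 14488 and 9251 in vehicle day 6 and 6718, 9388 and 4285 in naïve CC030 (0.72, SE 0.29, edgeR adjusted p = 0.0291). For mt-Cytb the groups overlapped. The call of mt-Co1 was lost without naïve library 3 (0.49) or mouse 4 (0.58), and that of mt-Cytb without naïve library 1 or 3 or mouse 1, 2 or 4 (0.47 to 0.75), with edgeR adjusted p of 0.0507 to 0.0875. The replicate block also took both calls away (edgeR adjusted p = 0.106 for mt-Co1 and 0.0789 for mt-Cytb), although the numbers name different mice. Subunits of complex I gave no increase, and mt-Nd2, mt-Nd5 and mt-Nd3 were lower with the chromosome 16 set (-1.55, -2.51 and -3.03) but turned positive with TMM over all genes.

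The make-up of mitochondrial mRNA does not depend on the scaling. mt-Nd5 made up 5.09%, 4.74%, 4.70%, 5.70% and 5.28% of mitochondrial mRNA counts in vehicle day 6 and 26.2%, 26.2% and 22.8% in naïve CC030, beside 4.54% on average in naïve C57BL/6J. mt-Cytb made up 32.6% ± 2.38 in vehicle day 6 (SD, n = 5) and 17.1% ± 1.47 in naïve CC030 (SD, n = 3), beside 36.8% in C57BL/6J. mt-Co1 made up 14.1% ± 0.672 in vehicle day 6 (SD, n = 5) and 7.54% ± 0.202 in naïve CC030 (SD, n = 3), beside 28.1% in C57BL/6J. mt-Nd2 made up 4.60% ± 0.289 in vehicle day 6 and 11.8% ± 1.40 in naïve CC030 (SD, same n), beside 3.13% in C57BL/6J. For these 4 genes the groups did not overlap. Nor did they for mt-Nd4, at 13.6% ± 0.804 in vehicle day 6 and 10.6% ± 0.464 in naïve CC030 (SD, same n), beside 5.55% in C57BL/6J. The shares of mt-Co1 and mt-Nd4 in vehicle day 6 thus lay away from those of C57BL/6J. mt-Nd1 (21.6% ± 1.29 in vehicle day 6 and 17.7% ± 2.48 in naïve CC030) and mt-Nd6 (6.35% ± 1.68 in vehicle day 6 and 7.86% ± 2.03 in naïve CC030; SD, same n) lay within overlapping ranges. The ribosomal RNAs mt-Rnr1 and mt-Rnr2 had log2 fold changes of 0.64 and 0.43 and were not called, and there were 0.396 to 0.822 counts of ribosomal RNA per count of mRNA in vehicle day 6 and 0.323 to 0.392 in naïve CC030. Copies of mitochondrial genes in nuclear chromosomes resemble them closely, so these counts are uncertain where reads fit both.

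**Figure D5:**
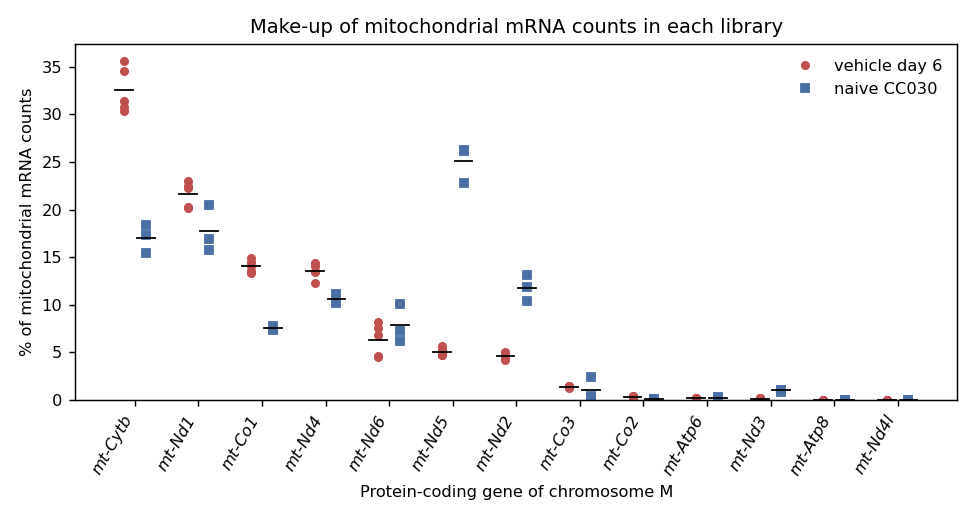
Percent of mitochondrial mRNA counts (vertical axis) taken by protein-coding genes of chromosome M (horizontal axis), circles for the 5 vehicle day 6 libraries and squares for the 3 naïve CC030 libraries, with a bar at each mean. mt-Cytb and mt-Co1 take a larger share in vehicle day 6 (32.6% and 14.1%), and mt-Nd5 and mt-Nd2 a larger share in naïve CC030 (25.1% and 11.8%).

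Of the 12 tested tRNA genes of chromosome M 3 rose (mt-Tm, mt-Ts1 and mt-Td), and mt-Tf and mt-Tt fell under every scaling. mt-Tm, of methionine, had 517, 257, 363, 647 and 683 counts in vehicle day 6 and 19, 20 and 12 in naïve CC030. mt-Tt, of threonine, had 13, 10, 3, 13 and 11 counts in vehicle day 6 and 256, 289 and 148 in naïve CC030. In both the groups did not overlap, and they moved in opposite directions. A tRNA gene is short and abuts its neighbours, so its counts are uncertain.

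On the other chromosomes 582 of 23978 genes were higher and 21920 were lower with the chromosome 16 set, with 3474 lower under every scaling. These calls are of counts listed under a symbol. ILC2 markers lie there, so the labelled cell type could not be checked against them. Id2, a transcriptional regulator that ILC2s need, is at 5200 CPM in C57BL/6J but had 1, 0, 0, 2 and 4 counts in vehicle day 6 and 18, 45 and 39 in naïve CC030. Gata3, the master transcription factor of ILC2s, had 67, 38, 35, 144 and 74 counts in vehicle day 6 and 25, 7 and 18 in naïve CC030. Of 11 tested ILC2 markers none was higher and 10 were lower, and of 11 tested markers of other lineages none was higher and 11 were lower, with 2 of each lower under every scaling. The ILC2 markers summed to 139 to 302 counts in vehicle day 6 and 489 to 580 in naïve CC030, and the markers of other lineages to 143 to 242 in vehicle day 6 and 495 to 622 in naïve CC030.

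The largest differences on these chromosomes fell on pseudogenes or rested on 1 library. The pseudogene Rpl19-ps11 had 7143, 6300, 4881, 9106 and 6478 counts in vehicle day 6 and 6, 2 and 3 in naïve CC030. Gm7332 had 651, 296, 155, 1338 and 349 counts and Gm3375 had 273, 265, 201, 626 and 353 counts in vehicle day 6, and both had none in any naïve CC030 library. Atp5f1 had 2, 15, 7, 3 and 0 counts in vehicle day 6 and 4488, 10 and 23 in naïve CC030. Camk2a and Slc8a3 likewise had their high counts in a single naïve library, with 4782 and 1639 counts, so that each of these 3 decreases rested on 1 library of 3. Without that library the log2 fold changes were -3.53 for Atp5f1, -3.58 for Camk2a and -3.41 for Slc8a3, against -10.37, -7.31 and -6.20 with it.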

How the data were processed

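Bulk RNA-seq libraries of CC030 lung ILC2s were made by the authors with the SMART-Seq v4 kit and sequenced on an Illumina NovaSeq. Per the labels and the study's methods, the authors trimmed reads with fastp and checked them with FastQC. They aligned CC030 reads with STAR to an mm9 pseudogenome, moved the alignments to mm10 with lapels and counted genes with HTSeq. A fault in the placing of reads could move counts between genes or out of them, and this was not tested. Which annotation they counted on: not given in the sources used here. The authors deposited raw counts, 1 value per gene and library, joined here on 55401 gene identifiers, of which 55141 have a symbol and position in GENCODE M21 (GRCm38). HTSeq's summary lines were left out of all tests.

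Genes were kept by filterByExpr and tested with edgeR 4.0.16 (R 4.3.3) by the robust quasi-likelihood F-test, unpaired, with p adjusted by Benjamini-Hochberg over all 24788 genes at a threshold of 0.05. Libraries were scaled by TMM on 179 protein-coding genes of chromosome 16 with at least 20 CPM in 3 naïve C57BL/6J libraries. The same scaling factor was used for scaled CPM, and SEs were computed from the fold change and F. Shares and numbers of detected genes were compared by exact two-sided permutation tests (scipy 1.17.1). The fit was tested on counts simulated with the means and common dispersion of these libraries. It recovered 9 of 95 genes changed 4-fold (9.47%) and 86 of 90 changed 16-fold (95.6%), and called 4 of 34680 unchanged genes. A gene that was not called may therefore still differ between the groups. Apart from the changed genes, the simulation gave both groups the same means, and 34865 genes passed its filter. It thus lacks the evenness of naïve CC030, and its share of unchanged genes called cannot be carried over to the real fit. Members and gene lists were chosen with earlier results of these data known. Named were up to 5 called genes of each list by smallest p with a mean of at least 50 counts, all cytokine receptor chains, the 10 largest increases and decreases among protein-coding genes of chromosome 16 whose groups do not overlap, the genes of chromosome M, and the 3 largest changes elsewhere with a mean of at least 200.0 counts. Other members given with values, and the genes high in a single naïve library, were chosen after their values were seen. Alternatives were DESeq2 1.42.0, 3 other scalings, other filters, thinned libraries, the replicate number as a block and leaving out each library. Library totals were 1143405 to 3420893 counts, and intervals between groups rest on the spread between libraries. The values of 1 gene of the signalling list, which is counted with that list, are not reported here.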

Additional observations from a re-analysis of the deposited data

Results flagged for a closer look

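Of 77 groups of 5 vehicle day 6 values tested, 2 held a library far from the others, and chance alone flags about 1 in 20 such groups. mt-Co1 stood at 6266 scaled CPM in vehicle day 6 of mouse 4, with the nearest of the other 4 libraries at 4738. mt-Nd4 stood at 5641 in the same library, with the nearest at 4521. This library was also the deepest, with 3420893 counts, and had the largest share of counts on chromosome M (11.9%); their part in the 2 values was not tested.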

How the results depend on the processing

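The scaling of the libraries decided many directions. On chromosome 16, 365 genes were higher and 68 lower with TMM over all genes, 366 and 77 with size factors of DESeq2 in edgeR, 368 and 78 with the Wald test of DESeq2, and 221 and 373 with total counts, beside 90 and 543 with the chromosome 16 set. On chromosome M, 18, 17, 19 and 13 were higher under these settings and 2, 2, 2 and 8 lower. On the rest, 3719, 3700, 3941 and 1600 were higher and 3498, 3796, 4007 and 18250 lower. With no filter on low counts 1090 genes of chromosome 16 and 41227 of the rest were lower, and with at least 10 counts in every library 186 and 3896, with 2 higher on chromosome M, since more or fewer genes were tested.

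Values with TMM over all genes, DESeq2 size factors, the Wald test and, where given, total counts turned positive for Arhgap31 (2.33, 2.38, 2.43, 0.11), Bach1 (1.56, 1.64, 1.69), Bdh1 (1.47, 1.53, 1.58), Ccdc80 (2.74, 2.79, 2.85, 0.51), Cd80 (2.49, 2.59, 2.65, 0.12), Crebbp (2.76, 2.80, 2.86, 0.55), Heg1 (2.67, 2.74, 2.79, 0.40), Ifnar1 (3.51, 3.58, 3.64, 1.22), Ifngr2 (3.25, 3.31, 3.36, 1.00), Il10rb (3.45, 3.55, 3.60, 1.07), Il1rap (1.19, 1.29, 1.34), Lsamp (0.39, 0.37, 0.41), Polq (1.65, 1.71, 1.76), Prkdc (1.61, 1.68, 1.73), Robo1 (0.49, 0.45, 0.49), Top3b (1.64, 1.70, 1.76), Zbtb20 (1.34, 1.36, 1.41), mt-Atp6 (4.12, 4.22, 4.28, 1.75), mt-Nd2 (2.67, 2.76, 2.81, 0.32), mt-Nd3 (0.88, 0.89, 0.93), mt-Nd5 (1.76, 1.87, 1.92) and mt-Nd6 (3.52, 3.59, 3.64, 1.25). With the distal end left out of the scaling set, Ifnar2 was at -0.091, mt-Nd1 at -0.026 and mt-Nd4 at -0.0033. Total counts and this set were chosen after the data had been seen.

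Leaving out 1 library at a time, the share of chromosome 16 differed by 3.90 to 4.49 percentage points and that of chromosome M by 5.75 to 6.95, and the number of detected genes by -16516 to -14151, with exact permutation p of 0.0571 to 0.0952, the smallest these designs allow. Chromosome 16 then had 80 to 98 genes higher and 523 to 579 lower, and 76 of the 90 increases and all 68 decreases held in every such fit, while 3 of the 6 on chromosome M did. Signs of uncalled genes turned for Ifnar2 (-0.21 to 0.40), Il10rb (-1.24 to 0.90), mt-Atp6 (-0.30 to 0.048) and mt-Nd4 (-0.061 to 0.43). mt-Co3 (1.66) and mt-Nd6 (-0.86) passed without naïve library 3, mt-Rnr1 (0.95) and mt-Rnr2 (0.64) without naïve library 2, and mt-Rnr1 (0.75) without mouse 4. The calls of mt-Co1 and mt-Cytb were also lost with the scaling set without the distal end. Numbers name different mice in the 2 groups and do not pair them. With the replicate block, 94 genes of chromosome 16 were higher and 526 lower, 5 and 11 on chromosome M, and 601 and 21561 on the rest, and 88 of the 90 increases held. Atp5f1, Camk2a and Slc8a3 were not called with it. Depth limits genes near 0 counts, for which a fold change depends on the prior count.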
